A study of Mus musculus with 22 samples.

Results

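The genes described here are the mouse matrix proteases and their inhibitors as measured by RNA sequencing in the choroid plexus (ChP) of OTX2 mutants. They are the protein-coding genes whose symbols name a matrix metalloproteinase (MMP), a tissue inhibitor of metalloproteinases (TIMP), a numbered ADAM, an ADAMTS or ADAMTS-like protein, or a serpin, with Serping1 left out. This rule found 143 of the 33984 genes with a matched transcript: 22 MMPs, 33 ADAMs, 19 ADAMTS genes, 5 ADAMTS-like genes, 4 TIMPs and 60 serpins. In the conditional model, Otx2 lox/lox mice of strain S129, 3 months old, received Cre-Tat, a cell-permeable recombinase, or vehicle into the lateral ventricles, and ChP of the lateral ventricles (LV) and of the fourth ventricle (4V) was collected separately 15 days after the injection. Pools of 5 Cre-Tat mice and of 4 vehicle mice were made. In the constitutive model, 4V ChP came from B6D2 mice labelled wildtype, Otx2 (+/-) and Otx2 (+/AA). The heterozygotes carry 1 Otx2 allele replaced in every cell for life, wildtype and Otx2+/- mice were 3 months old, and neither the age nor the nature of the AA allele is given in the sources used here. The methods name 4 Otx2+/- and 5 wildtype littermates and do not say whether that is the number per pool. Each of the 7 groups has 2 pools, A and B, so that all errors are over 2 pools of mice (n = 2), and the smallest two-sided p that an exact permutation test can reach with 2 against 2 is 0.333. The p-values given here set differences between groups against the spread between these pools. That spread was estimated for each gene with information from all genes tested, which is how p-values can fall below 0.333.

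MMPs are zinc proteases that cut collagens and other extracellular matrix proteins, and TIMPs bind and block their active sites. ADAMs sit in the cell membrane and release the outer parts of receptors and growth factors, while ADAMTS enzymes are secreted and cut proteoglycans such as versican and aggrecan. Most serpins trap serine proteases in a covalent complex, although some members, such as the collagen chaperone Serpinh1, have no inhibitory role. The ChP is a secretory epithelium on a vascularized stroma that makes cerebrospinal fluid, and OTX2 is a homeoprotein transcription factor of its epithelial cells.

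The groups are called by their labels because Otx2 itself, counted over its whole transcript, was not lower in the pools labelled as knockdown. Its normalized counts, which are counts divided by library size after TMM scaling within the pools of a comparison, were 18988 and 19006 in the Cre-Tat pools and 6054 and 6110.3 in the vehicle pools of 4V ChP (log2 fold change 1.64 ± 0.15), and 19650 and 16834 in the Otx2+/- pools against 6858 and 5791 in the wildtype pools. Counts over a whole transcript do not test for the loss of a single exon. The study counted reads of a single Otx2 exon as its own measure, which was not analysed here, and the methods state that Cre-Tat samples were tested for reduced Otx2 by qPCR before sequencing. The pools held 22750019 to 50088408 counts over all transcripts. With 1 transcript kept for each gene, 10558002 to 24833188 counts a pool remained, and members made up 0.288% to 0.340% of these. All values per 1000000 given here, also those called gene counts, are relative to these kept transcripts. Defining epithelial genes (Ttr, Folr1, Kl and others of a list of 8) were present in every pool, with a summed level of 188100 to 207600 counts per 1000000 (CPM) in the vehicle pools and 94120 to 106300 CPM in the Cre-Tat pools of 4V ChP, where 8 of 8 fell. Summed epithelial levels in LV ChP were 193900 to 194400 CPM with vehicle and 122300 to 154200 CPM with Cre-Tat, and 4 of 8 genes fell. In whole tissue, fewer cells of a type and less RNA per cell cannot be told apart. In the conditional model, 14 of 16 files carry a library number that belongs to another pool than the sample under which they were filed. Files were joined by library number, with the pool of each number taken from the sample descriptions: both runs of a number differed by little more than sampling noise (chi-square per degree of freedom 1.00 to 1.04 over 8 pairs), whereas pairs with different numbers gave 5.49 to 86.2. That agreement shows which files belong together and not which pool a number belongs to. With files as attached to the samples, 23 of 39 differences of named members in the comparisons that use the conditional model changed sign, as did Otx2 in all 6 of these comparisons (-0.29 in place of 1.64 for Cre-Tat against vehicle in 4V ChP), so that directions in that model rest on this join.

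Of the 143 members, 13 had no count in any of the 14 pools, among them Adam20, Adam25, Serpina3a and Serpinb12. With 3 counts taken as the limit that a count of 0 allows, this bounds them at 0.0112 per 1000000 gene counts over all pools, for counting error only. A further 66 had counts but did not pass the filter on low counts in any comparison, and none of the 79 untested members exceeded 23 counts in a pool. The 64 that were tested at least once comprised 10 MMPs, 17 ADAMs, 13 ADAMTS genes, all 5 ADAMTS-like genes, 3 TIMPs and 16 serpins. The untested serpins lie largely in gene clusters. On chromosome 12, between positions 103614786 and 104414329 of GRCm38, 4 of 23 serpins of clade A were tested (Serpina1b, Serpina3g, Serpina3n and Serpina12), and on chromosome 13, between 32842092 and 34002794, 5 of 15 clade B serpins were (Serpinb1a, Serpinb1b, Serpinb6a, Serpinb6b and Serpinb9).

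Per kilobase of transcript, the ChP expressed more of the transcripts of Timp3 and Timp2 than of any protease of these families. All levels in this paragraph and the next are counts per kilobase of the representative transcript, scaled to 1000000 gene counts, and means are over the 4 vehicle pools. Timp3, the matrix-bound inhibitor of MMPs and of several ADAMs, had a mean level of 229.8, its LV pools standing at 241 and 251 and its 4V pools at 212 and 214. Timp2, which inhibits MMPs and also takes part in pro-MMP2 activation with Mmp14, had a mean of 126. Over all 14 pools they ranged from 167 to 264 and from 116 to 176, and Timp3 was the higher in every pool except Otx2+/AA pool B (167 against 176). Of the summed counts of all members, Timp2 and Timp3 held 45.6% to 56.8% in a pool. For Timp3, 36.3% of the 50-base words of its transcript also occur in other genes, mainly in Syn3, whose exons overlap it on the opposite strand, and the counting is not stated to use strand. Timp1 and Timp4 were near the detection limit, with mean levels of 0.398 and 0.0888 and raw counts of 7 and 3 and of 2 and 4 in the vehicle pools of 4V ChP.

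Among the proteases, Adamts1, which cuts versican and aggrecan, came first with a mean level of 63.2 and a range over all pools of 45.97 to 111. Its upper end was set by 1 pool, Cre-Tat LV A. The MMPs were led by the gelatinase Mmp2 (26.4), the membrane-type enzymes Mmp15 (16.6) and Mmp14 (9.41) and, at a lower level, Mmp11 (1.496). Among the ADAMs the order was Adam9 (22.3), Adam17 (16.8), the shedding enzyme of TNF and of EGF receptor ligands, Adam10 (8.91), a protease of Notch and the amyloid precursor protein, and Adam22 (5.36), a receptor without protease activity. Behind Adamts1 followed Adamtsl1 (9.19), Adamts10 (5.46), which binds fibrillin, and Adamts5 (2.80), the second aggrecanase. The transcript that stands for Adamts10, 1 of 12 in the gene, is annotated as a target of nonsense-mediated decay and not as protein-coding. The serpins were led by Serpinh1 (57.1), the intracellular clade B serpins Serpinb6a (43.8) and Serpinb1b (36.8), and Serpine2 (13.4), the thrombin and plasminogen activator inhibitor protease nexin-1. Several neighbors in this order overlap in the vehicle pools: Serpinb6a and Serpinb1b (42.5 to 44.8 against 25.5 to 45.9), Adam17 and Mmp15 (16.1 to 18.1 against 14.6 to 19.8), and Adamtsl1 and Adam10 (7.42 to 11.2 against 8.16 to 9.73).

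**Figure D1:**
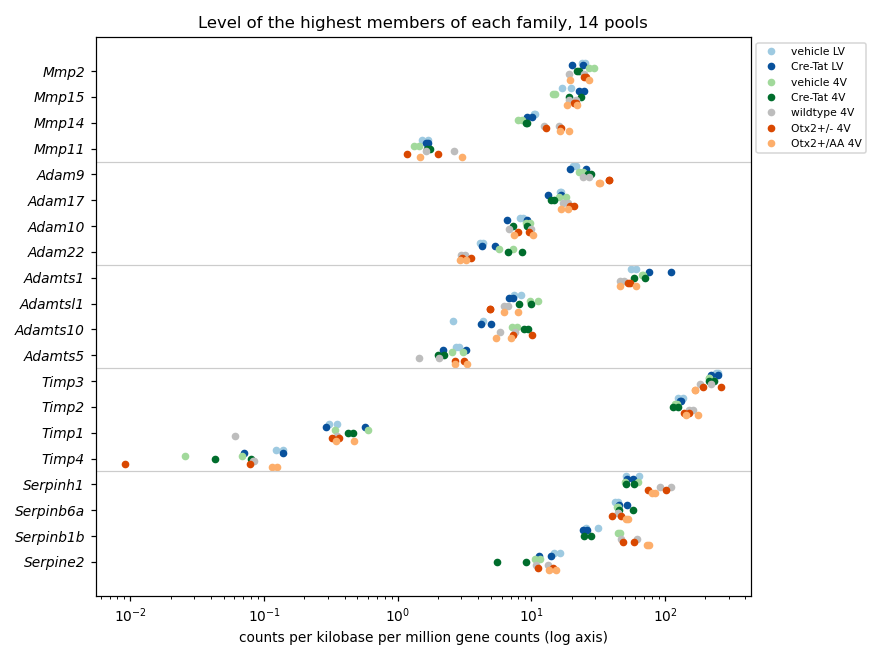
Levels of the 4 highest members of each family (ADAMTS and ADAMTS-like genes together) in all 14 pools, in counts per kilobase and 1000000 gene counts on a log axis; each point is 1 pool and colors mark the 7 groups. Timp3 and Timp2 lie to the right of every protease shown, and the highest Adamts1 pool, at 111, comes near the lowest Timp2 pool, at 116.

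To ask how the protease and inhibitor genes respond to the conditional knockdown, Cre-Tat and vehicle pools were compared in each ventricle by edgeR (quasi-likelihood test), and p-values received a Benjamini-Hochberg adjustment across the whole set of tested genes; a gene was called at an adjusted p under 0.05, and changes are log2 fold changes with their SE. In 4V ChP, 4 of 52 tested members were called and all 4 were lower with Cre-Tat, namely 1 protease of the MMP family, 1 of the ADAMTS family and 2 serpins, against 10.7% called among all 14550 genes (829 higher and 725 lower). The share of members called, 7.69%, is thus not above that of all genes. Their median log2 fold change was 0.0072, and that over all genes tested 0.0061. When pools were scaled by total counts, which moved the median of all genes by 0.15, the calls were 2 higher and 2 lower. The count of members fell when vehicle pool A was left out, in a fit with 1 vehicle pool, as did the count over all genes.

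Serpinb1b (chr13:33078575-33094380, GRCm38, the build of all positions given), an intracellular inhibitor of neutrophil-type serine proteases, had the smallest p. Its normalized counts in 4V ChP were 683 and 598 in the Cre-Tat pools and 1279.5 and 1136 in the vehicle pools. The 4 values form separate pairs, with a log2 fold difference of -0.92 ± 0.14 (adjusted p = 0.000242, edgeR), which is 1.89-fold lower with Cre-Tat. It was the only one of these 4 calls that held with each pool left out in turn, with adjusted p from 3.11e-07 to 0.00113. In LV ChP the counts were 971 and 954 against 1336 and 1119 and did not overlap either, but the difference of -0.35 ± 0.16 did not pass (adjusted p = 0.345, edgeR).

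Serpine2 (chr1:79794197-79861180), protease nexin-1, had 291 and 174 normalized counts in the Cre-Tat pools and 423 and 354 in the vehicle pools of 4V ChP. Pool B of the Cre-Tat mice was the lowest by a wide margin, and the log2 fold change was -0.75 ± 0.21 (adjusted p = 0.0254, edgeR). Without that pool it was -0.42 (adjusted p = 0.179), and without vehicle pool A -0.61 (adjusted p = 0.088). The LV values were 674 and 584 against 814 and 937, a difference of -0.48 ± 0.17 (adjusted p = 0.17, edgeR) with no overlap between the groups.

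The secreted aggrecanase Adamts5 (chr16:85856173-85901828) had 312 and 339.9 normalized counts with Cre-Tat and 450.1 and 501 with vehicle in 4V ChP, a log2 fold difference of -0.54 ± 0.15 (adjusted p = 0.0271, edgeR). The gelatinase Mmp2 (chr8:92827291-92853420) had 1012 and 950.0 against 1483 and 1261, a log2 fold difference of -0.49 ± 0.14 (adjusted p = 0.0273, edgeR). In both genes each Cre-Tat pool lay below each vehicle pool. Both calls are close to the threshold: Adamts5 was not called without Cre-Tat pool A, vehicle pool A or vehicle pool B (adjusted p 0.0839, 0.0633 and 0.201), and Mmp2 was not called without Cre-Tat pool B or vehicle pool A (0.0681 and 0.394). Scaling by total counts kept the sign of both and ended both calls (-0.40 and -0.34, adjusted p 0.13 and 0.16). Their LV differences, -0.22 ± 0.18 and -0.31 ± 0.17, did not pass (adjusted p = 0.708 and 0.472, edgeR). The next gene by p in 4V ChP was Adam17, with 963 and 887 against 1182 and 1227 normalized counts and a difference of -0.38 ± 0.13 that missed the threshold (adjusted p = 0.0771, edgeR).

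Beside these 4 lower members, markers of other cell types moved in the same 4V pools. Macrophage markers summed to 70.05 to 89.9 CPM with Cre-Tat and 37.5 to 39.02 CPM with vehicle, and 5 of 7 tested markers rose, none of the 8 being at 0. The fibroblast markers summed to 483 to 533 CPM against 473 to 530.4 CPM, with 1 of 6 higher (Col1a2) and 1 lower (Pdgfra). Neutrophil markers were at 0.885 to 17.2 CPM against 0.354 to 0.379 CPM, the upper value being Cre-Tat pool A alone, with Ly6g at 0. Ependymal markers were at 225.6 and 225.8 CPM against 103 to 118 CPM, with Foxj1 higher among 3 tested. Of single markers in the remaining lists, the astrocyte genes Gfap and Aqp4 and the endothelial gene Plvap were higher, while Aldh1l1 (astrocytes) and Syt1 (neurons) were lower. Their part in the member results, and that of the fall in epithelial markers, was not tested.

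In LV ChP, 1 of 56 tested members was called, a serpin that was lower with Cre-Tat, against 3.24% of all 15002 genes. The median over the members was 0.02 and that over all genes 0.0044. The gene is Serpina1b (chr12:103728156-103830373), one of the alpha-1 antitrypsin genes, with 19.4 and 27.2 normalized counts in the Cre-Tat pools and 58.6 and 98.1 in the vehicle pools. The vehicle pools are far apart, and the log2 fold change was -1.75 ± 0.39 (adjusted p = 0.025, edgeR). It was not called without Cre-Tat pool A (adjusted p = 0.1), without vehicle pool B (0.315), with total counts (0.0586) or with the sum over transcripts (0.115). Its identity is uncertain, since 47.1% of its 50-base words occur in Serpina1a, Serpina1c and Serpina1d. Further down the order by p, Serpini1 (neuroserpin, an inhibitor of tissue plasminogen activator) had 321 and 252 against 393 and 437 normalized counts and Serpina3n, a secreted inhibitor known from reactive glia and the acute phase, 52.03 and 37.3 against 20.9 and 16.4. Their groups did not overlap, but neither passed (adjusted p = 0.161 and 0.17, edgeR). Adamts1 had 11823 and 8578 against 6742 and 7693, with Cre-Tat pool A the highest of the 4 (adjusted p = 0.194, edgeR). Without Cre-Tat pool B, which leaves 1 Cre-Tat pool, the log2 fold change of Adamts1 was 0.72. In the LV pools macrophage markers summed to 79.5 to 95.1 CPM with Cre-Tat and 46.7 to 49.8 CPM with vehicle (2 of 8 higher). Ependymal markers were at 154 to 171 CPM against 87.7 to 87.7 CPM, with Foxj1 higher among 3 tested. Astrocyte markers summed to 90.5 to 104 CPM against 70.1 to 78.6 CPM, with Slc1a2 (1.00 ± 0.25) and Aqp4 (0.78 ± 0.19) higher and Aldh1l1 (-0.69 ± 0.16) lower among 4 tested. Single markers of neurons (Snap25, 1.27 ± 0.24), lymphocytes (Cd3g, 3.27 ± 0.61) and fibroblasts (Col1a2, 1.64 ± 0.17) were higher as well, and the fibroblast marker Pdgfra (-0.87 ± 0.16) was lower. The part of these cell types in the member values was not tested.

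No member was called for a difference in the Cre-Tat effect between LV and 4V ChP, where the interaction of treatment and ventricle was tested over 8 pools. Of all 15565 genes, 1 was called by edgeR, 0.00642%, and of 62 tested members 2 had an unadjusted p under 0.05, and 0 were called by DESeq2 as well. Those with an unadjusted p under 0.05 were Adamts1, whose LV effect was higher than its 4V effect by 0.72 ± 0.24 (unadjusted p = 0.00942, edgeR), and Serpinb1b, with 0.57 ± 0.20 (unadjusted p = 0.0142, edgeR), both with an adjusted p of 1. The next smallest p-values were those of Serpinf1 (-0.47 ± 0.26), Mmp16 (0.99 ± 0.57) and Mmp14 (-0.29 ± 0.20), which did not pass either. The calls in 4V and not in LV ChP are therefore not shown to differ between the ventricles.

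**Figure D2:**
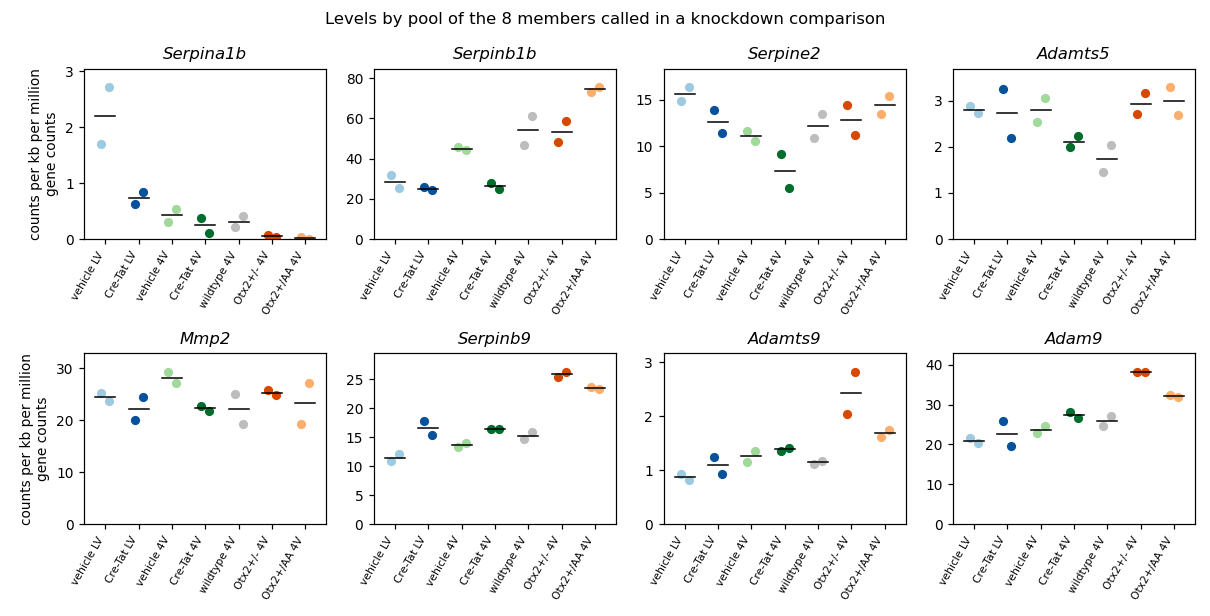
Levels of the 8 members called in a knockdown comparison, in counts per kilobase and 1000000 gene counts; points are the 2 pools of each of the 7 groups and bars their means. Serpinb1b in 4V ChP falls from 45.9 and 44.2 in the vehicle pools to 27.8 and 24.9 in the Cre-Tat pools, and Serpinb9 rises from 14.6 and 15.8 in the wildtype pools to 25.4 and 26.3 in the Otx2+/- pools.

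The constitutive model asks the same question in mice that carried a single intact Otx2 allele from conception. In 4V ChP, 4 of 54 tested members were called between Otx2+/- and wildtype pools and all were higher in Otx2+/- mice, namely the ADAMTS genes Adamts5 and Adamts9, Adam9 and Serpinb9. Among all 14573 genes 3.53% were called, 260 higher and 255 lower, and the share of members was 7.41%. The median log2 fold change was 0.12 over the members and -0.0007 over all genes.

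Serpinb9 (chr13:33003250-33017957), an intracellular inhibitor of granzyme B, had 1653 and 1622 normalized counts in the Otx2+/- pools and 983 and 995 in the wildtype pools. The pools of a group lay within a few percent of each other, and the log2 fold change was 0.73 ± 0.11 (adjusted p = 0.00828, edgeR), 1.66-fold higher. Adamts9 (chr6:92772699-92943492), a secreted protease of versican and aggrecan, had 313 and 411 against 177 and 174 and a log2 fold difference of 1.04 ± 0.18 (adjusted p = 0.0167, edgeR). For Adamts9, 5.16% of the 50-base words occur in other genes, mainly on the opposite strand. Both calls held with each pool left out, with adjusted p up to 0.0102 for Serpinb9 and up to 0.0348 for Adamts9.

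Adam9 (chr8:24949611-25016927), a membrane sheddase, had 2916 and 2758 normalized counts in the Otx2+/- pools and 1934 and 1992 in the wildtype pools, a log2 fold difference of 0.53 ± 0.11 (adjusted p = 0.0368, edgeR). It was not called without Otx2+/- pool A or either wildtype pool (adjusted p 0.0773, 0.131 and 0.0976). Adamts5 had 559 and 618 against 309 and 405, a log2 fold difference of 0.72 ± 0.16 that lies at the threshold (adjusted p = 0.0497, edgeR). Every Otx2+/- pool lay above every wildtype pool in both genes, but the Adamts5 call ended without Otx2+/- pool B (0.0711), without wildtype pool A (0.126), with total counts (0.0546) and with no filter on low counts (0.0564). The next gene by p was Adamtsl1, an ADAMTS-like matrix protein without a protease domain, with 730.0 and 693 against 971 and 964 and a difference of -0.44 ± 0.11 (adjusted p = 0.0744, edgeR). Serpinb1a, an inhibitor of neutrophil elastase, had 280.0 and 419 against 163 and 226 and did not pass (adjusted p = 0.0978, edgeR).

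Markers of other cell types moved in the same pools as the 4 higher members. Those of fibroblasts summed to 1053 to 1107 CPM in the Otx2+/- pools and 749 to 766 CPM in the wildtype pools, none of the 7 was at 0, and 2 of 6 tested, Col1a2 and Col3a1, rose. Epithelial markers summed to 124600 to 139100 CPM against 190100 to 194000 CPM, with Ttr and Folr1 lower. Macrophage markers summed to 75.2 to 86.4 CPM against 57.98 to 67.8 CPM with no overlap, and 1 of 7 tested rose (Mrc1, 0.64 ± 0.14). Of 4 astrocyte markers Aqp4 rose (1.74 ± 0.16), while their sums overlapped (139 to 216 CPM against 149 to 151 CPM). Their part in the member results was not tested.

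Between Otx2+/AA and wildtype pools, 0 of 53 tested members was called by edgeR, against 0.345% of all 14494 genes; 9 members had an unadjusted p under 0.05, and DESeq2 also called 0. The count of members rose when wildtype pool B was left out, in a fit with 1 wildtype pool, as did the count over all genes. The comparison uses the same wildtype pools as the one above. For the 4 members called in Otx2+/- mice, the Otx2+/AA pools gave 1492 and 1383 against 1004 and 1014 normalized counts of Serpinb9 (difference 0.51 ± 0.13, adjusted p = 0.125, edgeR) and 660.0 and 504 against 316 and 413 of Adamts5 (0.68 ± 0.18, adjusted p = 0.16, edgeR). Adamts9 differed by 0.44 ± 0.18 and Adam9 by 0.20 ± 0.13 (adjusted p = 0.458 and 0.748, edgeR). In all 4 genes each Otx2+/AA pool lay above each wildtype pool. These genes were picked because Otx2+/- pools exceeded the same wildtype pools, which favors such a separation. It is therefore not separate support, and the share of all genes that separate in this way was not counted. Among the other members with the smallest p, Serpinh1 had 3379 and 3349 against 5062 and 3943 (-0.42 ± 0.14, adjusted p = 0.321, edgeR). Adam7 was at 1 and 7 raw counts against 50 and 11, too few for a firm difference (adjusted p = 0.166, edgeR). Epithelial markers summed to 160700 to 173800 CPM in Otx2+/AA and 190100 to 194000 CPM in wildtype pools. Sums of macrophage (85.99 to 94.11 against 57.98 to 67.77 CPM), astrocyte (187.4 to 191.6 against 148.9 to 151.0 CPM) and oligodendrocyte markers (54.8 to 62.74 against 46.81 to 53.66 CPM) were higher without overlap. No marker of these lists was called, and their part in the member values was not tested.

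Directly between Otx2+/- and Otx2+/AA pools, 0 of 54 tested members was called by edgeR and 13 had an unadjusted p under 0.05, against 2.7% called among all 14578 genes; DESeq2 called 1, Serpinb1a. Some members were called without Otx2+/- pool A, Otx2+/- pool B or Otx2+/AA pool B, in fits with 1 pool in a group. The count over all genes rose in these fits as well. Serpinb1a had 293 and 440.1 normalized counts in the Otx2+/- pools and 152 and 233 in the Otx2+/AA pools, with no overlap, and differed by 0.93 ± 0.24 (adjusted p = 0.0646, edgeR). Without Otx2+/- pool A or without Otx2+/AA pool B, with 1 pool left in that group, its difference was 1.20 and 1.27. Serpina12, or vaspin, was at 12 and 10 raw counts against 1 and 0 (adjusted p = 0.0546, edgeR), so that counting error limits the comparison. The ADAMTS genes Adamts9 and Adamts10 differed by 0.60 ± 0.18 and 0.57 ± 0.17 (adjusted p = 0.127 and 0.136, edgeR). Fibroblast markers summed to 1053 to 1107 CPM in Otx2+/- and 681 to 853.6 CPM in Otx2+/AA pools, with Dcn (0.85 ± 0.16) and Col1a2 (0.76 ± 0.16) higher. Epithelial markers summed to 124600 to 139100 against 160700 to 173800 CPM, with Folr1 lower (-0.60 ± 0.14). The part of these cell types in the member values was not tested.

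**Figure D3:**
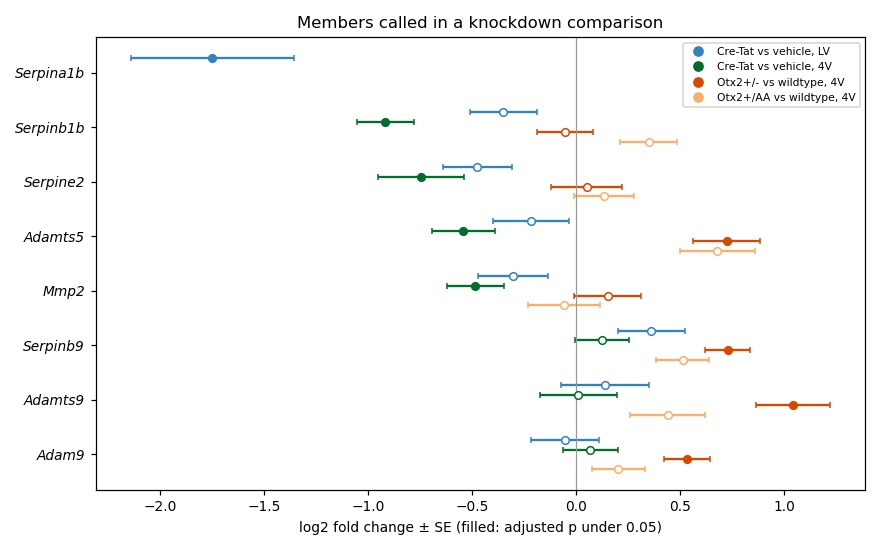
Log2 fold change with its SE (bars) of the 8 members called in a knockdown comparison, in 4 comparisons; filled points have an adjusted p under 0.05. Adamts5 lies at -0.54 ± 0.15 in Cre-Tat against vehicle 4V ChP and at 0.72 ± 0.16 in Otx2+/- against wildtype 4V ChP.

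Of the members called in a knockdown comparison of 4V ChP, Adamts5, Mmp2 and Adam9 have no window in the promoter set used. The proximal promoters of the other 4 are shown because OTX2 binds DNA. In the different models, 2 were lower after Cre-Tat (Serpinb1b and Serpine2) and 2 higher in Otx2+/- mice (Serpinb9 and Adamts9). These promoters are RefSeq windows of GRCm38.p6, from 250 bases before to 50 bases after the RefSeq start, which lies 0 to 42 bases from the 5′ end of the transcript whose counts were used (the gene spans given above cover all transcripts of a gene, and that of Serpinb1b begins further upstream with another one). They are written 5′ to 3′ on the gene's strand, and capitals mark the homeodomain core TAAT on either strand (ATTA on the other).
Serpinb1b, chr13:33083853-33084152, plus strand: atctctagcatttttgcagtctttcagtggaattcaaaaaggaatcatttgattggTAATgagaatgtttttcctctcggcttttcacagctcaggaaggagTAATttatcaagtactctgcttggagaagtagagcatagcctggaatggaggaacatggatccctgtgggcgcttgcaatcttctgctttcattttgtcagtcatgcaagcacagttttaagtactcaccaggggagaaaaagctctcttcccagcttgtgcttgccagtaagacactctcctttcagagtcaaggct
Serpine2, chr1:79858616-79858915, minus strand: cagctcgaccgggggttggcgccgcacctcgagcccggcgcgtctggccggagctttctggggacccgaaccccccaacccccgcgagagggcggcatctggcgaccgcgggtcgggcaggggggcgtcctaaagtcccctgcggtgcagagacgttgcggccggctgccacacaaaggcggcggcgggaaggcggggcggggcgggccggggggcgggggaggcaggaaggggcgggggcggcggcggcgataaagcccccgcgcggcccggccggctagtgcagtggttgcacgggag
Serpinb9, chr13:33004291-33004590, plus strand: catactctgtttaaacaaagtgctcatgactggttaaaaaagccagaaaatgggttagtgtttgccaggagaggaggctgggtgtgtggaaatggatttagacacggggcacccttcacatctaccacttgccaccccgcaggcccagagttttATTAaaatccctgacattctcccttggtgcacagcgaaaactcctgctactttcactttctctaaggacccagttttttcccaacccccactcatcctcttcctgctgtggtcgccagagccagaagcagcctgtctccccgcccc
Adamts9, chr6:92943485-92943784, minus strand: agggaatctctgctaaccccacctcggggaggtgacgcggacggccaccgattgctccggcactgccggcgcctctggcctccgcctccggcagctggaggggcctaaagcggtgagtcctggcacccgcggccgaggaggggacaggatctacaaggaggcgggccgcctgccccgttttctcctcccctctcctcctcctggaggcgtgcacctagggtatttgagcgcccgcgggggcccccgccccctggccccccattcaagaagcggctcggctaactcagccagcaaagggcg
Serpinb1b holds 2 cores and Serpinb9 holds 1, while Serpine2 and Adamts9 hold 0. Their GC contents are 43.3%, 51%, 77.7% and 70%, so the 2 clade B serpins, which lie in one cluster on chromosome 13, are poorer in GC than the other 2. The core is common: it occurred in 66 of 104 members with a window (63.5%) and in 58.0% of all 32851 windows. The longer motif TAATCC, the sequence to which OTX2 and related homeoproteins bind, was searched on both strands and occurred in 2320 of the 32851 windows (7.06%) and in 4 of the 104 member windows (3.85%), those of Mmp10, Mmp1b, Serpina1f and Serpinb6d. These genes had 5, 5, 6 and 5 counts over all files and did not pass the filter on low counts, so they were not tested. None of the 4 windows shown holds the longer motif. A match is only a description of these letters in this window, as is the lack of one.

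Whether the conditional and the constitutive knockdown act alike on these genes in 4V ChP was asked with the interaction of knockdown and model, over 8 pools. Of 60 tested members 2 were called, Adamts5 and Serpinb1b, against 1.64% of all 15327 genes, and in both the Cre-Tat effect was the lower. The difference between the effects of Adamts5 was -1.28 ± 0.22 (adjusted p = 0.0114, edgeR), from an effect of -0.54 ± 0.15 after Cre-Tat and of 0.72 ± 0.16 in Otx2+/- mice. It was called without each of 7 pools left out in turn and not without vehicle pool B (-1.19, adjusted p = 0.0737). For Serpinb1b the difference was -0.88 ± 0.19 (adjusted p = 0.0412, edgeR). Its normalized counts were 1568 and 1801 in the Otx2+/- pools and 1573 and 1923 in the wildtype pools, which overlap. That call was less firm, and it ended without either Cre-Tat pool, either vehicle pool, Otx2+/- pool B or wildtype pool A (adjusted p 0.0537 to 0.193) and with total counts (0.104). Adamts9 (-1.05 ± 0.25) and Serpinb9 (-0.62 ± 0.16) did not pass (adjusted p = 0.0568 and 0.0779, edgeR), and neither did Adam17 (-0.52 ± 0.17, adjusted p = 0.177, edgeR), so the rise of Adamts9 and Serpinb9 in Otx2+/- mice is not shown to differ from their change after Cre-Tat. Strain, injection and run differ between the models too, and these cannot be told apart.

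No TIMP was called in any of the 7 comparisons of groups or in either interaction. Timp3 differed by -0.24 ± 0.16 in LV and -0.08 ± 0.15 in 4V ChP after Cre-Tat and by 0.14 ± 0.20 in Otx2+/- mice (adjusted p = 0.588, 0.832 and 0.755, edgeR). In Otx2+/AA against wildtype pools it had 14611 and 13733 against 21097 and 16194 normalized counts and no overlap (-0.40 ± 0.15, adjusted p = 0.39, edgeR). Between Otx2+/- and Otx2+/AA pools, which share the latter with that comparison, it had 24916 and 17369 against 15074 and 14165 and no overlap either (0.53 ± 0.18, adjusted p = 0.175, edgeR). Timp2 differed by -0.18 ± 0.16, -0.15 ± 0.14, -0.14 ± 0.12 and -0.09 ± 0.14 in the same order (adjusted p = 0.731, 0.624, 0.606 and 0.925, edgeR). Between LV and 4V ChP of vehicle mice, Timp3 had 21347 and 22586 against 17251 and 16046 and Timp2 8761 and 9619 against 7802 and 7019. Each LV pool exceeded each 4V pool, but neither gene passed (0.40 ± 0.12 and 0.31 ± 0.12, adjusted p = 0.0646 and 0.148, edgeR). Timp1, an inhibitor that other tissues raise in inflammation, was below the filter in every comparison, with 1 to 11 raw counts a pool.

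More members were called between the ventricles than in any of the knockdown comparisons. In vehicle pools, 11 of 55 tested members were called between LV and 4V ChP, 7 higher and 4 lower in LV, which is 20% against 7.44% of all 14561 genes. In Cre-Tat pools, 9 of 60 were called, 5 higher and 4 lower in LV, which is 15% against 5.87% of all 15111 genes. Member medians were 0.02 and 0.19, and those of all genes 0.0055 and -0.0051. The comparisons share no pool, and the sources do not say whether the LV and 4V pools of a letter came from the same mice. With total counts, which moved the medians of all genes by -0.19 and -0.17, the calls were 3 higher and 7 lower in vehicle pools and 5 higher and 6 lower in Cre-Tat pools. Of the 11 members called with vehicle, 7 were also called with Cre-Tat (63.6%), and 10 had the same sign, the exception being Serpinb1b. For all genes called with vehicle, 45.4% were called again in the same direction. The 7 shared members are Serpinf1, Serpine2, Adam23 and Adamts15, higher in LV ChP, and Serpinb1a, Adamts10 and Adamtsl3, higher in 4V ChP.

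Serpinf1 (chr11:75409769-75422701), the anti-angiogenic factor PEDF, had 252 and 255 normalized counts in LV and 103 and 102 in 4V vehicle pools. The pools of a ventricle hardly differed, and the log2 fold change was 1.30 ± 0.18 (adjusted p = 0.00061, edgeR), 2.46-fold higher in LV. With Cre-Tat the values were 289.9 and 359 against 199 and 165, a difference of 0.83 ± 0.21 (adjusted p = 0.0207, edgeR). The call with vehicle held with each pool left out, and that with Cre-Tat ended without LV pool B (0.0504) or 4V pool B (0.214). Serpine2 had 614 and 689 against 443 and 371 with vehicle (0.67 ± 0.14, adjusted p = 0.0103, edgeR) and 651 and 565 against 392 and 238 with Cre-Tat (0.95 ± 0.22, adjusted p = 0.0131, edgeR). Both are secreted serpins, and each LV pool exceeded each 4V pool of the same treatment in both. The Serpine2 calls ended without 4V pool B (adjusted p = 0.125 with vehicle, 0.307 with Cre-Tat).

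Serpinb1a ran the other way, with 7.11 and 8.02 normalized counts in LV and 52.4 and 37.6 in 4V vehicle pools (-2.56 ± 0.46, adjusted p = 0.00436, edgeR). With Cre-Tat it had 16.2 and 2.92 against 55.3 and 37.5 (-2.22 ± 0.57, adjusted p = 0.0247, edgeR). The counts in LV ChP are few, and the calls ended without vehicle 4V pool A (adjusted p = 0.0821), Cre-Tat LV pool B (0.0628) or Cre-Tat 4V pool A (0.142). Its paralog Serpinb1b was lower in LV with vehicle, at 1008 and 822 against 1339 and 1191 (-0.47 ± 0.13, adjusted p = 0.0476, edgeR). That call ended without LV pool B, 4V pool A or 4V pool B (0.338, 0.228 and 0.119). In Cre-Tat pools the Serpinb1b difference was 0.10 ± 0.17 (adjusted p = 0.828, edgeR).

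Among the ADAMTS genes, Adamts10 had 333 and 204 normalized counts in LV and 505 and 509.9 in 4V vehicle pools (-0.92 ± 0.19, adjusted p = 0.011, edgeR) and 368 and 466 against 704 and 753 in Cre-Tat pools (-0.81 ± 0.19, adjusted p = 0.0132, edgeR). These counts are of its transcript annotated for nonsense-mediated decay, and both calls held with the sum over its transcripts. Adamtsl3, an ADAMTS-like matrix protein, was lower in LV, with log2 fold changes of -1.56 ± 0.43 with vehicle and -1.66 ± 0.41 with Cre-Tat (adjusted p = 0.0444 and 0.0209, edgeR), at no more than 69.2 normalized counts in a vehicle pool. Adamts15, a versican-cleaving enzyme, was the member of the family that was higher in LV, with 177 and 264 against 117 and 120.3 with vehicle (0.89 ± 0.22, adjusted p = 0.0249, edgeR) and a difference of 0.84 ± 0.22 with Cre-Tat. The calls of all 3 genes rest on single 4V pools: without 4V pool B, their adjusted p was 0.0741, 0.343 and 0.122 with vehicle and 0.0897, 0.268 and 0.4 with Cre-Tat, in the order given. Without vehicle LV pool B or vehicle 4V pool A, Adamtsl3 (0.145 and 0.0502) and Adamts15 (0.163 and 0.0967) were not called either. Adamts1, the most abundant ADAMTS gene, differed by -0.04 ± 0.12 with vehicle (adjusted p = 0.901, edgeR).

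The membrane-type MMPs Mmp14 and Mmp15 were higher in LV ChP of vehicle mice. Mmp14 had 510.1 and 526 against 358 and 350.4 normalized counts (0.55 ± 0.13, adjusted p = 0.0247, edgeR) and Mmp15 1628 and 1931 against 1332 and 1189.7 (0.50 ± 0.13, adjusted p = 0.0328, edgeR). Both calls ended without LV pool B, 4V pool A or 4V pool B, with adjusted p from 0.0643 to 0.24. With Cre-Tat their differences were 0.26 ± 0.18 and 0.34 ± 0.18 and did not pass (adjusted p = 0.479 and 0.335, edgeR). Mmp28, or epilysin, had 77.6 and 77.99 against 21.9 and 29.98 in Cre-Tat pools (1.58 ± 0.35, adjusted p = 0.0114, edgeR) and 33.96 and 49.7 against 17.05 and 12.03 in vehicle pools (1.50 ± 0.43, adjusted p = 0.0523, edgeR). Its call ended without 4V pool A (0.0684), and 12.3% of its 50-base words lie in other genes, mainly one on the opposite strand. Mmp2, the most abundant MMP, did not separate the ventricles (-0.01 ± 0.12 with vehicle, adjusted p = 0.969, edgeR).

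Adam23, an adhesion receptor without protease activity, was higher in LV by 1.71 ± 0.49 with vehicle and 1.58 ± 0.39 with Cre-Tat (adjusted p = 0.049 and 0.0214, edgeR), from raw counts of 38 and 41 against 6 and 8 and of 65 and 70 against 16 and 21. Adam4, a testis-type ADAM, was lower in LV with Cre-Tat, at 48.6 and 41.9 against 95.7 and 106 normalized counts (-1.15 ± 0.30, adjusted p = 0.0264, edgeR), and 17.4% of its 50-base words occur in other genes. The calls of both ended without either 4V pool (adjusted p 0.136 to 0.237 for Adam23 with vehicle, 0.0734 and 0.1 with Cre-Tat, 0.0545 and 0.219 for Adam4), and that of Adam23 with vehicle also without LV pool B (0.166). Serpina1b had 44.2 and 72.1 against 7.31 and 12.03 normalized counts with vehicle (2.60 ± 0.46, adjusted p = 0.00374, edgeR). That call held with each pool left out, on 56 and 90 against 6 and 8 raw counts.

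Leaving out 1 pool, which leaves 1 pool in a group, moved the ventricle counts of members in both treatments. With vehicle the count rose without LV pool A and fell without LV pool B, 4V pool A or 4V pool B. In Cre-Tat pools it fell without either 4V pool. The counts over all genes moved in the same direction in each of these fits. Endothelial markers summed to 166 to 183 CPM in LV and 117 to 142 CPM in 4V vehicle pools, with 3 of 7 higher in LV and none at 0. In Cre-Tat pools they summed to 201 to 240.4 CPM and 133 to 156 CPM, with 4 of 7 higher, and 3 of 7 mural markers (Acta2, Myh11 and Tagln) were higher in LV as well. Epithelial markers did not separate the ventricles with vehicle (0 of 8 called), but with Cre-Tat they summed to 122300 to 154200 CPM in LV and 94120 to 106300 CPM in 4V with no overlap, and 1 of 8 was higher in LV (Folr1, 0.69 ± 0.20, adjusted p = 0.0472, edgeR). The astrocyte marker Slc1a2 was higher and Aldh1l1 lower in LV in both treatments. Of single markers in other lists, Dcn (fibroblasts) and Csf1r (macrophages) were higher in LV with vehicle, and Cx3cr1 (macrophages) and Snap25 (neurons) with Cre-Tat, where S100a9 (neutrophils) was lower. Their part in the member results was not tested.

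**Figure D4:**
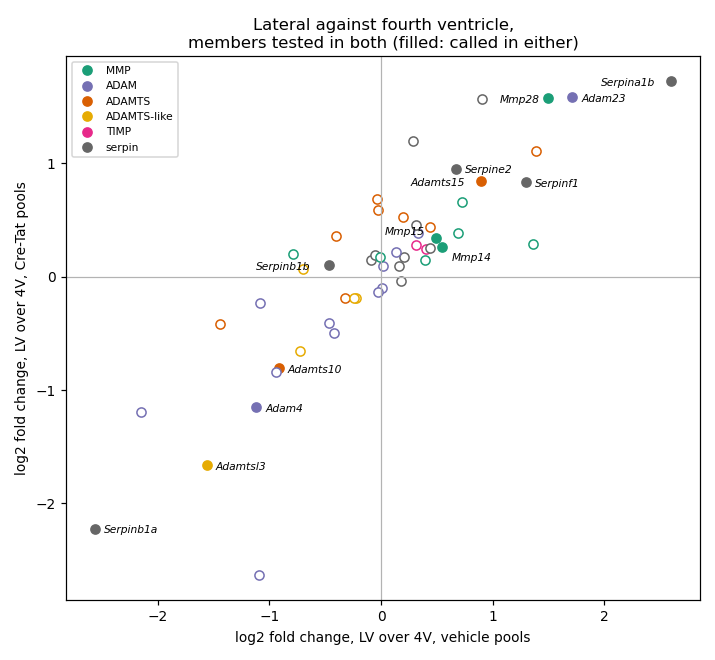
Log2 fold change of LV over 4V ChP in Cre-Tat pools against that in vehicle pools for the 53 members tested in both, colored by family; filled points were called in either. Serpinb1a, Adamtsl3, Adam4 and Adamts10 lie at the lower left, Serpina1b, Adam23, Mmp28 and Serpinf1 at the upper right, and Serpinb1b is the filled point whose sign differs.

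Other genes of the same pathways were read from 6 lists that hold 55 partner genes. The lists were chosen with earlier results of these data known. The shares of partners called, here and between the ventricles below, are therefore descriptions and not a test against all genes. In 4V ChP, Cre-Tat changed 14 of 42 tested partners (4 higher, 10 lower; 33.3% against 10.7% of all genes), in LV ChP 4 of 44 (3 higher, 1 lower; 9.09% against 3.24%), and Otx2+/- 11 of 45 (4 higher, 7 lower; 24.4% against 3.53%). Among the inhibitors outside the TIMP and serpin families, Pi15, a secreted trypsin inhibitor, had 199.7 and 182 normalized counts with Cre-Tat and 18.6 and 31.6 with vehicle in 4V ChP (2.95 ± 0.27, adjusted p = 1.07e-06, edgeR). The same gene had 209.5 and 188 in Otx2+/- pools against 7.92 and 11.8 in wildtype pools (4.33 ± 0.28, adjusted p = 0.00038, edgeR). Spint1 and Spint2, Kunitz-type inhibitors of epithelial membrane serine proteases, fell in both models, by 1.20 and 0.61 on the log2 scale after Cre-Tat in 4V ChP and by 1.73 and 0.86 in Otx2+/- mice.

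Proteases outside the member families changed in both directions. The lysosomal proteases Ctsd and Ctsl fell after Cre-Tat in 4V ChP (-0.66 ± 0.17 and -0.59 ± 0.14) and in Otx2+/- mice (-0.76 ± 0.13 and -0.52 ± 0.11), whereas Ctss, a cathepsin of myeloid cells, rose after Cre-Tat (1.00 ± 0.19 in 4V and 0.92 ± 0.20 in LV ChP). Tll1, a procollagen C-proteinase of the BMP1 family, had 81.4 and 75.97 normalized counts with Cre-Tat against 163 and 142 with vehicle in 4V ChP, and 726 and 469 in Otx2+/- pools against 202 and 182 in wildtype pools. Its effects of -0.96 ± 0.21 and 1.64 ± 0.22 are opposite in sign, as for Adamts5, and the difference between them was called (-2.61 ± 0.30, adjusted p = 0.00113, edgeR). Of the other proteases called, Htra1 fell (-0.99 ± 0.22) and Prss23 rose (0.53 ± 0.14) after Cre-Tat in 4V ChP, and Mme, or neprilysin, rose in Otx2+/- mice (1.35 ± 0.15). Bsg, or basigin, an inducer of MMPs, fell in both models in 4V ChP (-0.60 ± 0.19 after Cre-Tat and -0.92 ± 0.14 in Otx2+/- mice). In the clotting list, F3 (tissue factor, the trigger of coagulation) rose with Cre-Tat in LV (0.96 ± 0.18) and in 4V ChP (2.02 ± 0.15). Of the substrates, vitronectin (Vtn), an adhesive matrix and plasma protein, fell after Cre-Tat in 4V ChP (-0.86 ± 0.18), in Otx2+/- mice (-1.73 ± 0.20) and in Otx2+/AA mice (-0.94 ± 0.15), where it was the one partner called of 45 tested.

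Between the ventricles, 12 of 43 tested partners were called with vehicle (11 higher and 1 lower in LV), which is 27.9% against 7.44% of all genes, and 9 of 44 with Cre-Tat (7 higher and 2 lower), which is 20.5% against 5.87%. The plasminogen activator genes Plau (urokinase) and Plat were higher in LV (1.89 ± 0.50 and 0.77 ± 0.14 with vehicle), as were the basement membrane protein Nid1 (0.78 ± 0.16) and Thbs1 (0.72 ± 0.12), a matrix protein that takes part in MMP uptake. Fibronectin (Fn1) was the partner lower in LV in both treatments, with 175 and 141 normalized counts in LV and 460.2 and 472 in 4V vehicle pools (-1.56 ± 0.16, adjusted p = 5.66e-05, edgeR) and a difference of -1.54 ± 0.29 with Cre-Tat.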

How the data were processed

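Ribosome-depleted RNA per the labels (polyA-selected per the methods) from 14 ChP pools was sequenced in single reads of 50 bases. The submitters' processing notes name Bowtie 0.12.9, HTSeq 0.5.3, SAMtools, bcl2fastq 1.8.4, DESeq 1.8.3 and mm10. The authors deposited whole-number read counts per transcript, not normalized, in 22 files, and the strand setting of the counting is not given in the sources used here. The design had assumed counts per gene. Counts of both runs of a library number were summed, and the transcript with most counts over all files stood for its gene, with symbols from GENCODE vM21 (82807 of 95533 transcripts matched, holding 89.5% of counts). File totals were 11253762 to 43790479 counts. Levels between genes are per kilobase of that transcript. Errors given with log2 fold changes are SEs of the fit over pools, and the limit that a count of 0 allows covers counting error only.

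Tests used edgeR 4.0.16 in R 4.3.3 (filterByExpr, TMM, glmQLFit and glmQLFTest, Benjamini-Hochberg over all genes tested) on the pools of each comparison, after a check on simulated counts. Alternatives were DESeq2 1.42.0, its size factors, total counts, no filter or a mean count above 10, the A and B letters as a block, sums over transcripts, all groups of a run in 1 fit, runs kept apart, files as attached to the samples, and each pool left out. Leaving out a pool leaves 1 pool in its group, which then adds no spread to the p-values of that fit. The text names every member called in any comparison, the TIMPs, the 4 highest members of each family, the 5 smallest p where fewer than 5 passed, called partner genes and Otx2. Not every called partner is given with its values, and some genes that the rule names are not reported here. Promoter windows are from RefSeq, GRCm38.p6. The members, lists and rules were chosen with earlier results of these data known.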

Additional observations from a re-analysis of the deposited data

Results flagged for a closer look

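Adamts5, a secreted aggrecanase, and Serpinb1b, an intracellular serine protease inhibitor, were singled out because the effect of lower Otx2 labelling differed between the models in 4V ChP by a test of the difference itself. For Adamts5, the log2 fold change after Cre-Tat minus that in Otx2+/- mice was -1.28 (adjusted p = 0.0114, edgeR interaction term), with effects of opposite sign in the models. For Serpinb1b the same difference was -0.88 (adjusted p = 0.0412, edgeR interaction term), with a lower level after Cre-Tat and overlapping pools in Otx2+/- and wildtype mice. The strain, the sequencing run and the injection differ between the models in the same way and cannot be told apart from the kind of knockdown. Groups of 2 pools were too small for a check for single pools that stand apart.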

How the results depend on the processing

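Counts of called members are given first; where none is stated under a setting, the count stayed within 1.5 times of the one reported. With DESeq2, the count was 1 in place of 0 for Otx2+/- against Otx2+/AA and 4 in place of 2 for knockdown by model. With total counts, the count was 0 in place of 1 for Cre-Tat against vehicle in LV, 1 in place of 0 for Otx2+/- against Otx2+/AA and 1 in place of 2 for knockdown by model. With no filter on low counts, the count was 4 in place of 0 for Otx2+/AA against wildtype, 17 in place of 11 for LV against 4V with vehicle and 5 in place of 2 for knockdown by model. With counts summed over a gene's transcripts, the count was 0 in place of 1 for Cre-Tat against vehicle in LV, 2 in place of 4 for Cre-Tat against vehicle in 4V, 2 in place of 4 for Otx2+/- against wildtype and 1 in place of 2 for knockdown by model. With all groups of a run in 1 fit, the count was 2 in place of 4 for Cre-Tat against vehicle in 4V. With both runs of a pool as separate libraries, the count was 13 in place of 1 for Cre-Tat against vehicle in LV, 11 in place of 4 for Cre-Tat against vehicle in 4V, 23 in place of 11 for LV against 4V with vehicle, 21 in place of 9 for LV against 4V with Cre-Tat, 2 in place of 0 for treatment by ventricle and 7 in place of 2 for knockdown by model. With files taken as attached to the samples, the count was 37 in place of 1 for Cre-Tat against vehicle in LV, 37 in place of 4 for Cre-Tat against vehicle in 4V, 19 in place of 9 for LV against 4V with Cre-Tat, 12 in place of 0 for treatment by ventricle and 23 in place of 2 for knockdown by model. Over all genes, these fits called 6709, 8742, 4809, 5258 and 4688 in the same order, so the rise was not particular to the members. Leaving out 1 pool at a time gave counts of 0 to 2 for Cre-Tat against vehicle in LV, 1 to 6 for Cre-Tat against vehicle in 4V, 3 to 6 for Otx2+/- against wildtype, 0 to 5 for Otx2+/AA against wildtype, 0 to 5 for Otx2+/- against Otx2+/AA, 3 to 16 for LV against 4V with vehicle, 3 to 12 for LV against 4V with Cre-Tat, 0 to 0 for treatment by ventricle and 0 to 3 for knockdown by model. 

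The letters A and B are shared across groups, but no source ties pools of a letter to common mice or a common batch, and same-letter pools deviated with correlations of -0.149 to 0.374. With the letter as a replicate block, the count of members was 10 for Cre-Tat against vehicle in 4V, 11 for Otx2+/- against wildtype, 4 for Otx2+/AA against wildtype, 2 for Otx2+/- against Otx2+/AA, 21 for LV against 4V with vehicle, 10 for LV against 4V with Cre-Tat and 1 for knockdown by model, while the block left it as reported for the other comparisons. Over all genes the block moved calls from 1554 to 3114 (Cre-Tat 4V), from 515 to 2539 (Otx2+/-), from 50 to 549 (Otx2+/AA) and from 1083 to 2288 (ventricles with vehicle). With the letters crossed in LV, chosen after seeing the data, the replicate block called 3 members and 1012 genes, against 1 and 622 with the letters as labelled. Calls over all genes in the reported tests were 486 for Cre-Tat against vehicle in LV, 1554 for Cre-Tat against vehicle in 4V, 515 for Otx2+/- against wildtype, 50 for Otx2+/AA against wildtype, 393 for Otx2+/- against Otx2+/AA, 1083 for LV against 4V with vehicle, 887 for LV against 4V with Cre-Tat, 1 for treatment by ventricle and 252 for knockdown by model. They moved by over 1.5 times with DESeq2 to 122 for Otx2+/AA against wildtype and 5 for treatment by ventricle, with total counts to 1533 for LV against 4V with Cre-Tat, with no filter on low counts to 874 for Cre-Tat against vehicle in LV, 390 for Otx2+/AA against wildtype, 1840 for LV against 4V with vehicle, 1351 for LV against 4V with Cre-Tat, 31 for treatment by ventricle and 627 for knockdown by model, with counts summed over a gene's transcripts to 22 for Otx2+/AA against wildtype, 248 for Otx2+/- against Otx2+/AA, 0 for treatment by ventricle and 166 for knockdown by model, with all groups of a run in 1 fit to 18 for Otx2+/AA against wildtype and 717 for LV against 4V with vehicle, with both runs of a pool as separate libraries to 2543 for Cre-Tat against vehicle in LV, 3542 for Cre-Tat against vehicle in 4V, 3711 for LV against 4V with vehicle, 3430 for LV against 4V with Cre-Tat, 52 for treatment by ventricle and 1000 for knockdown by model.

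Of 732 values of named members under the alternatives that joined files by library number, 600 kept their direction and side of the threshold, 93 lost and 39 gained significance, and none changed sign. With files as attached, 23 of 39 changed sign: for Cre-Tat against vehicle in LV Serpina1b (1.85), Serpine2 (0.61) and Serpini1 (0.32), for Cre-Tat against vehicle in 4V Adam17 (0.19), Adamts5 (0.22), Mmp2 (0.28) and Serpine2 (1.17), for LV against 4V with vehicle Adam23 (-0.44), Mmp15 (-0.16), Serpinb1a (0.55) and Serpinb1b (0.24), for LV against 4V with Cre-Tat Adam23 (-0.23), Adam4 (0.92), Adamts10 (0.0936), Adamts15 (-0.29), Adamtsl3 (0.37), Mmp28 (-0.21), Serpinb1a (0.97), Serpine2 (-0.0271) and Serpinf1 (-0.18), for treatment by ventricle Mmp16 (-0.0822) and Serpinb1b (-0.0947), for knockdown by model Adam17 (0.0606). Otx2 then differed by -0.0131 (Cre-Tat against vehicle in LV), -0.29 (Cre-Tat against vehicle in 4V), -0.11 (LV against 4V with vehicle), 0.16 (LV against 4V with Cre-Tat), 0.27 (treatment by ventricle) and -1.83 (knockdown by model). The cause was not tested, but both runs of a library number agree and runs as attached do not. Otx2 also changed sign, near 0, with counts summed over a gene's transcripts (-0.0108, Otx2+/AA against wildtype) and total counts (-0.0642, LV against 4V with vehicle), and ranged on leaving out 1 pool from -0.0639 to 0.19 (Otx2+/AA against wildtype), -0.22 to 0.0312 (LV against 4V with Cre-Tat) and -0.0161 to 0.23 (knockdown by model). Of 31 member calls, 5 held under every one of those alternatives: Adamts9 and Serpinb9 in Otx2+/- mice, Serpinb1b in 4V after Cre-Tat, and Serpinf1 and Serpina1b between ventricles with vehicle. Depth limits the low members, such as Timp1, Timp4, Adam7 and Serpina12, whose counts in a pool were few.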

Other observations

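Some members differed in level between the control groups of the 2 models, vehicle-injected S129 and wildtype B6D2 4V ChP. This comparison was made after the values were seen, it was not tested, and strain, run and injection cannot be told apart in it. All levels are counts per kilobase and 1000000 gene counts. Serpinb1a stood at 4.31 and 6.36 in wildtype and 1.59 and 1.23 in vehicle 4V pools, while its paralog Serpinb1b stood at 46.9 and 61.3 and 45.9 and 44.2. Adam4 ran in the opposite direction, with 0.140 and 0.0928 in wildtype and 1.58 and 2.08 in vehicle pools. Timp2 was at 161 and 150.0 against 122 and 119, and Adamts1 at 49.7 and 45.97 against 67.3 and 69.02. In each of these genes the pools of the 2 control groups did not overlap, for Serpinb1b only narrowly (46.9 against 45.9). The genes were picked after the values were seen, and the share of members or of all genes that separate in this way was not counted.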
